A study of Gallus gallus with 4 samples.

Results

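Reactive Müller glia (MG) of the chick retina, 24 h after an excitotoxic injury, were described from single-cell libraries made with and without clodronate liposomes. The cells were selected by their UMI counts in the 2 libraries that received NMDA: of the barcodes with at least 200 genes and at most 5% mitochondrial UMIs, those with at least 4 UMIs of *FABP9* and at least 1 UMI of *TGFB2* were taken. This gave 941 reactive MG among 16505 kept barcodes, 597 in the NMDA library and 344 in the clodronate+NMDA library. All 4 libraries of the study held 36389 kept barcodes.

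Every library came from dissociated retinas of wild-type chicks. The first injection into the eye, of clodronate liposomes or of saline, was given at P6, and the second, of NMDA or of saline, at P10, with collection 24 h later. The 4 groups are called saline, NMDA, clodronate+saline and clodronate+NMDA. Clodronate liposomes are taken up by phagocytes and deplete microglia. There was 1 library per group, the labels did not give the number of retinas in a library, and no difference between groups has a replicate check.

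MG are the radial glia of the retina, which in health clear glutamate, recycle retinoids and hold water and ions in balance. NMDA is a glutamate receptor agonist that kills amacrine and other inner retinal neurons, and MG answer by losing part of this supportive program and taking on a reactive state. In birds and fish a share of reactive MG goes on to re-enter the cell cycle and form progenitors, and microglia are among the cells known to affect that step. *FABP9*, paired with the name *PMP2* by RefSeq synonyms, encodes a fatty acid binding protein, and *TGFB2* a secreted ligand of the TGFβ family.

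The reactive MG made up 6.24% of kept barcodes in the NMDA library (exact binomial 95% interval 5.77 to 6.75%) and 4.96% in the clodronate+NMDA library (4.46 to 5.49%). The same 2 thresholds found 3 barcodes of 9978 in the saline library and 9 of 9906 in the clodronate+saline library. Intervals here and below cover counting error within a library only. A member held a median of 7346 UMIs in the NMDA library and 5856.5 in the clodronate+NMDA library, against 1487 and 1726 in the other barcodes. Reactive MG thus supplied 17.7% and 9.76% of the UMIs in kept barcodes. The deposited barcodes held 27033560 and 24031990 UMIs in these libraries, and 113 barcode sequences occurred in both, 0 of them as members in both. Of the members, 11 of NMDA carried a barcode that was also present in clodronate+NMDA, and 3 the reverse.

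*FABP9* ran from 4 to 246 UMIs among the members of the NMDA library, with a median of 25, and from 4 to 271, with a median of 23, in clodronate+NMDA. *TGFB2* had medians of 4 and 3 UMIs. Just inside the threshold, 14 barcodes of each library had exactly 4 UMIs of *FABP9* together with *TGFB2*, and just outside it 26 and 16 had 3. In these 2 groups of the NMDA library, *VIM* was at 8351 and 2794 UMIs per 1000000 (CPM), and in those of clodronate+NMDA at 7062 and 8939 CPM. A further 329 and 135 barcodes had enough *FABP9* but no UMI of *TGFB2*, and their *VIM* levels were 9586 and 11522 CPM. Since 1 UMI of *TGFB2* was needed, deep barcodes had a better chance of being taken.

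**Figure D1:**
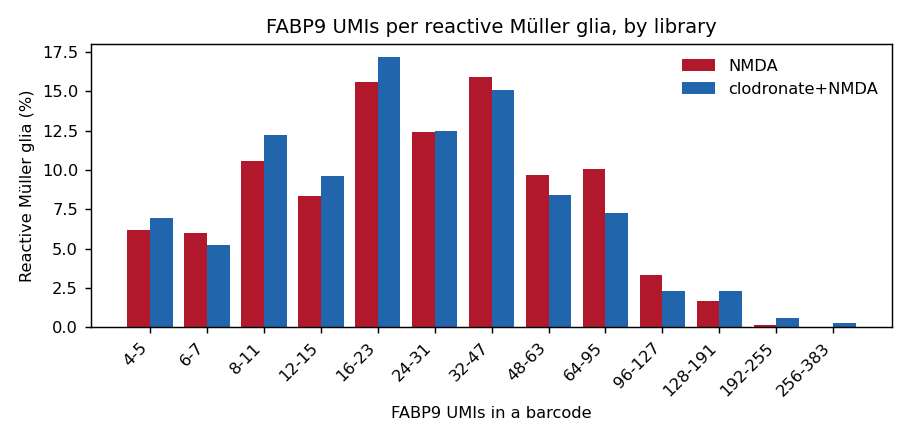
The x axis gives *FABP9* UMIs in a barcode in unequal classes, and the y axis the percentage of the reactive MG of each library in that class. Red bars stand for the 597 members of NMDA and blue bars for the 344 members of clodronate+NMDA, and the spreads overlap over nearly the whole range, with medians of 25 and 23 UMIs.

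The glial label of the members was set beside genes that the rule did not use. *VIM*, the intermediate filament of MG, had UMIs in 595 of 597 members of NMDA and in 340 of 344 members of clodronate+NMDA, and the glutamate transporter gene *SLC1A3* in 579 and 337. These shares were not matched for depth. *VIM* was also found in 58.5% and 33.8% of barcodes without a UMI of *FABP9*, at median depths of 1433 and 1659 UMIs. Against MG of the libraries without NMDA, given below, both genes were within 2-fold, so that they do not mark the reactive state. Barcodes with at least 2000 UMIs were thinned to that depth, which left 579 members and 2458 of 8967 other barcodes in NMDA. In clodronate+NMDA it left 331 members and 2879 of 6597 other barcodes. At least 3 marker genes of a single other retinal or blood cell type were then found in 19.7% of members and 83.4% of other barcodes of the NMDA library, and in 22.7% and 89.6% of those of clodronate+NMDA. Rod markers were commoner in the thinned members, at 7.94% against 4.23% of other barcodes in NMDA and 5.74% against 0.834% in clodronate+NMDA. For cones the shares were 5.18% against 12.1% and 9.67% against 6.88%. Bipolar, amacrine and ganglion cell markers were rarer in the members of both libraries. Unthinned, 288 of 597 and 165 of 344 members held 3 such markers, most often of bipolar cells (128 and 97 members), cones (88 and 58) or rods (74 and 22). Those members had a median of 20 *FABP9* UMIs in NMDA against 30 in the rest, and 19 against 26 in clodronate+NMDA. No doublet caller was applied. Of 10 microglial markers, the members of NMDA had 4 at 0 UMIs and those of the clodronate+NMDA library 7, with *C1QA*, *C1QC*, *LY86* and *TREM2* at 0 in both. The others summed to 6.25 and 14.8 CPM, against 24.4 and 4.32 CPM in the other barcodes, and included the chemokine gene *CCL4* in both libraries and the receptor gene *CSF1R*, at 1.79 CPM, in NMDA.

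UMIs of glial genes also occurred in barcodes of neurons, more often in NMDA than in clodronate+NMDA. Bipolar-type barcodes were those with at least 3 bipolar cell markers and under 4 UMIs of *FABP9*. A UMI of *FABP9* was found in 35.6% of them in the NMDA library and in 16.1% in clodronate+NMDA, at median depths of 1505 and 1501.5 UMIs. For *VIM* the shares were 59.5% and 34.3%, and for *MDK* 10.1% and 2.22%. In the members *MDK* was found in 94.6% and 74.1%, but at median depths of 7346 and 5856.5 UMIs, so that the shares are not matched for depth. The levels in other barcodes enter the ratios below, which are therefore not compared between the libraries.

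Against all other kept barcodes, many genes of glial transcription factors, secreted ligands and the reactive cytoskeleton were higher in the reactive MG. The reactive MG were poor in transcripts of inner retinal neurons and of hemoglobin. UMIs were summed over barcodes and given as CPM, and genes with at least 20 UMIs in the 2 sums together were compared. Over all 14513 such genes of the NMDA library, 11.8% were higher and 38.2% lower by at least 2-fold in the members, and over 14381 genes of clodronate+NMDA the shares were 13.3% and 32.2%. The median log2 ratios of all genes were -0.63 and -0.44. Scaling by the median of ratios moved these medians by 0.59 and 0.44, so that a gene at 0 on the CPM scale was above the typical gene. The members were chosen by 2 of these genes, so that the values are a description without a test.

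The rule genes and their companions came first. *FABP9* was at 4641 CPM in the members and 657 CPM in the other barcodes of the NMDA library, and at 5264 and 201 CPM in clodronate+NMDA. *TGFB2* was at 887 and 61.6 CPM in NMDA and at 731 and 57.3 CPM in clodronate+NMDA. Both were used to choose the cells. *MDK*, which encodes the growth factor midkine, was not used, and was at 1683 and 188 CPM in NMDA (log2 ratio 3.16, 95% interval 3.10 to 3.22) and at 514 and 23.7 CPM in clodronate+NMDA (4.44, 4.29 to 4.60). *VIM* was at 11656 and 1470 CPM in NMDA (2.99, 2.97 to 3.01) and at 13763 and 563 CPM in clodronate+NMDA (4.61, 4.58 to 4.64). *FABP7*, a fatty acid binding protein gene of glia, had ratios of 2.79 and 4.85.

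Among genes of glial and progenitor identity, more were higher than lower in the members of both libraries. Of 22 transcription factors of this kind that reached 20 UMIs in NMDA, 11 were higher and 3 lower by 2-fold, and of 21 in clodronate+NMDA 13 were higher and 3 lower. *SOX2* was at 386 CPM in the members and 48.9 CPM elsewhere in NMDA, and at 313 and 19.6 CPM in clodronate+NMDA. *PAX2* had log2 ratios of 2.94 and 4.51, *SOX9* of 2.75 and 4.33 and the Hippo coactivator *YAP1* of 2.66 and 4.44. *SOX21*, a SOX factor outside the list, was among the 10 genes of both libraries whose interval lay furthest above 0, with ratios of 3.78 (3.64 to 3.92) and 5.34 (5.07 to 5.61). The neuronal factor *SOX11* was lower in the members, at -2.35 and -2.53, as were *LIN28B*, at -3.36 and -4.01, and *PAX6*, at -1.70 and -1.93. Against MG of the libraries without NMDA, given below, this list had more lower than higher genes.

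Several ligand genes were higher in the members, while others of the same lists were lower. Of 26 genes of the TGFβ and BMP pathways, 11 were higher by 2-fold in NMDA and 12 with clodronate, *TGFB2* included, and 6 and 3 were lower. *INHBA*, a subunit of activin, was at 520 CPM in the members and 42 CPM elsewhere in NMDA (log2 ratio 3.63, 3.52 to 3.75) and at 69.6 and 6.8 CPM in clodronate+NMDA (3.36, 3.02 to 3.70). *BMP4* had ratios of 3.71 and 5.08 and *TGFB1* of 3.16 and 4.33. Lower were *INHBB* of the same list, at -4.27 and -2.17, and *RSPO2* of the Wnt list, at -1.98 and -4.33. *HBEGF*, a ligand of the EGF receptor, had ratios of 2.66 and 3.80. The receptor *EGFR* was lower in the members, at -2.32 and -1.83, whereas *ERBB2* of the same list was higher, at 2.65 and 2.83. Of the Wnt list, 11 of 23 genes were higher and 5 lower in the members in NMDA, and 10 of 21 were higher and 4 lower with clodronate, with *WNT6* at 3.56 and 5.16. *WNT4* was at 726 CPM in the members and 90.9 CPM elsewhere in NMDA, and at 11.2 and 0.68 CPM in clodronate+NMDA.

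The cytoskeleton, the cell surface and the matrix were also richer in the members. Of the genes listed for reactive glial cytoskeleton and surface, 13 of 22 were higher and 1 lower in NMDA, and 15 of 21 were higher and 2 lower in clodronate+NMDA. *S100A6*, a calcium-binding protein gene, was at 1769 and 155 CPM in members and other barcodes of NMDA (3.52, 3.46 to 3.58) and at 2100 and 57.6 CPM in clodronate+NMDA (5.19, 5.10 to 5.28). The intermediate filament gene *NES* had log2 ratios of 3.26 and 4.39 and the hyaluronan receptor gene *CD44* of 3.08 and 4.10. Of the matrix and integrin list, 13 of 21 and 14 of 18 genes were higher and 5 and 3 lower. Those higher included *TIMP2*, an inhibitor of metalloproteinases, at 2.93 and 3.30, and *COL4A1*, a basement membrane collagen, at 3.27 and 4.37. The water channel gene *AQP1* had a ratio of 4.60 (4.40 to 4.81) in NMDA and 5.34 (4.83 to 5.89) in clodronate+NMDA.

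Homeostatic genes were higher in the members than in other barcodes, 13 of 21 in each library, with median log2 ratios of 1.86 and 3.89. *CLU*, a secreted chaperone gene, was at 3436 and 419 CPM in members and other barcodes of NMDA (3.04) and at 3119 and 119 CPM in clodronate+NMDA (4.71). *SLC13A5*, a citrate transporter gene, had ratios of 3.02 and 5.07. *MSX1*, a homeobox gene, had ratios of 3.74 (3.52 to 3.96) and 5.48 (4.57 to 6.51).

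Cell cycle genes were counted in each library. In NMDA 7 of 22 were higher and 6 lower, with a median of -0.10, and in clodronate+NMDA 16 of 19 were higher and 1 lower, with a median of 2.25. *MCM2*, a helicase subunit gene, was at 35.5 CPM in the members and 5.9 CPM elsewhere in NMDA (2.59, 2.24 to 2.94), and at 70.1 and 4.08 CPM in clodronate+NMDA (4.10, 3.71 to 4.50). *CCND2*, a cyclin gene, had ratios of 2.31 and 3.57, and *PCNA* of -0.72 and 0.89. The difference between the libraries in these counts was not tested.

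The libraries did not share all leading genes. *POSTN*, which encodes the matrix protein periostin, was at 159 CPM in the members of NMDA and 10.3 CPM in those of clodronate+NMDA, and *HAS2*, a hyaluronan synthase, at 155 and 4.04 CPM. The ratio of members to other barcodes of *HAS2* was 3.71 (3.50 to 3.93) in NMDA and -0.38 (-1.54 to 0.60) in clodronate+NMDA. Against other barcodes, *S100A4* had a ratio of 0.16 (-0.15 to 0.46) in NMDA and 5.17 (4.78 to 5.57) in clodronate+NMDA. For *LGALS1A*, a galectin gene, the ratios were -0.18 (-0.40 to 0.04) and 5.37 (5.01 to 5.76). Levels in other barcodes enter these ratios, so that they do not show a difference between the members of the libraries. In NMDA, 52.9% of the 206 *LGALS1A* UMIs of the members came from 5 barcodes.

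Markers of inner retinal neurons were lower in the members, while of 8 rod markers 2 were lower in NMDA and 1 in clodronate+NMDA. All 9 amacrine cell markers were lower in the members of both libraries, with median log2 ratios of -3.55 and -3.53, and 9 of 9 bipolar cell markers were lower in NMDA and 7 of 9 in clodronate+NMDA. *CARTPT*, a neuropeptide gene, had 1 UMI in the members of NMDA against 75.4 CPM elsewhere, and 0 UMIs in those of clodronate+NMDA, where 41.3 CPM were found elsewhere. The hemoglobin gene *HBBA* was at 15.9 CPM in the members and 823 CPM in the other barcodes of NMDA (-5.70, -6.06 to -5.36), and at 0.449 and 0.971 CPM in clodronate+NMDA. Of the sterol genes, 7 of 14 were lower in NMDA and 8 of 14 in clodronate+NMDA, beside 38.2% and 32.2% of all genes. In that list the cholesterol exporter gene *ABCA1*, at 2.76 and 3.18, and *NPC2*, a lysosomal cholesterol carrier gene, at 2.04 and 2.89, were higher.

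**Figure D2:**
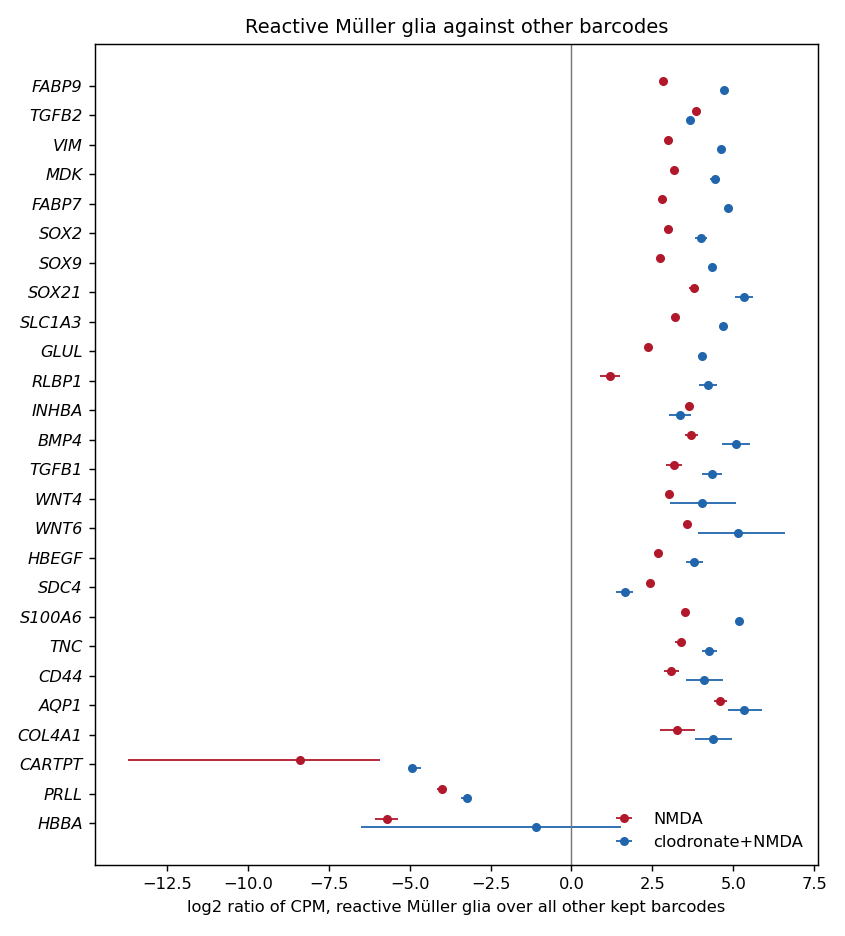
The x axis gives the log2 ratio of CPM, reactive MG over all other kept barcodes of the same library, with red points for NMDA and blue points for clodronate+NMDA, and the y axis names the genes. Lines are exact 95% intervals of counting error, and a side with 0 UMIs was set at 3 counts, with the open end of its interval not drawn. Glial genes such as *SOX9*, at 2.75 and 4.33, lie right of 0 in both libraries and *CARTPT* left of it, and since the levels in other barcodes differed between the libraries, the distance between red and blue points does not compare the members.

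The reactive MG were set beside MG of the libraries without NMDA, taken by at least 10 UMIs of *GLUL* and at least 1 of *RLBP1*, which gave 925 barcodes in saline and 549 in clodronate+saline. This gate picked cells by 2 homeostatic genes, so that *GLUL* and *RLBP1* were fixed by it. The gate found 21 barcodes in NMDA and 33 in clodronate+NMDA, of which 14 and 26 were also reactive MG. Over 11452 genes, 14.2% were higher and 16.9% lower by 2-fold in reactive MG of NMDA than in GLUL-high MG of saline, and over 10555 genes 8.72% were higher and 11.9% lower in clodronate+NMDA than in clodronate+saline. In each pair both the treatment and the gate differed.

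Most homeostatic genes were lower in the reactive MG of NMDA than in GLUL-high MG of saline, and fewer passed 2-fold in the clodronate pair, a difference that was not tested and whose baselines differ. Without the gate genes *GLUL* and *RLBP1*, 13 of 19 were lower and 0 higher in NMDA over saline, and 6 of 18 were lower and 2 higher in clodronate+NMDA over clodronate+saline. *CRABP1*, a retinoic acid carrier gene, was at 802 CPM in GLUL-high MG of saline and 13.8 CPM in reactive MG of NMDA (log2 ratio -5.86, -6.24 to -5.49), and at 515 and 27.8 CPM in the clodronate pair (-4.21, -4.60 to -3.84). *CA2*, a carbonic anhydrase gene, had ratios of -3.48 and -1.70, the water channel gene *AQP4* of -4.02 and -2.21, and the receptor gene *GPR37L1* of -4.16 and -2.31. *SLC1A3* was close to level, at -0.45 and 0.03, and *SOX9* at -0.41 and -0.58. Of the glial and progenitor transcription factors, 5 of 22 were higher and 7 lower in NMDA over saline. In the clodronate pair 1 of 21 was higher and 3 were lower. *YAP1* was at -1.16 and -0.70, *PAX2* at -0.62 and 0.03 and *MYC* at 5.90 and 1.80. *GFAP*, the filament often used as a sign of gliosis, was at 262 and 342 CPM in GLUL-high MG and at 45.1 and 19.3 CPM in reactive MG of the matching libraries.

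*WIF1*, a secreted Wnt inhibitor gene, took opposite directions in the 2 pairs. It was at 835 CPM in GLUL-high MG of saline and 45.8 CPM in reactive MG of NMDA, a log2 ratio of -4.19 (-4.40 to -3.98). With clodronate it was at 6.32 and 87.6 CPM, a ratio of 3.79 (3.01 to 4.69). The 2 sets of GLUL-high MG thus differed more in *WIF1* than the 2 sets of reactive MG.

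Of the genes listed for reactive glial cytoskeleton and surface, 14 of 21 were higher and 1 lower in the first pair, and 12 of 20 were higher and 2 lower in the second. *GFAP* was the lower gene of the first pair and lower in the second as well, and *VIM* was within 2-fold, at 0.63 and 0.26. *TUBB6*, a tubulin gene, was at 0.803 CPM in GLUL-high MG of saline and 232 CPM in reactive MG of NMDA (8.18, 6.63 to 10.46), and at 6.32 and 130 CPM with clodronate (4.37, 3.60 to 5.25). *BMP4* had 1 UMI in each set of GLUL-high MG and was at 162 and 93.9 CPM in reactive MG. *MDK* had ratios of 3.72 and 2.68 and *COL4A1* of 6.25 and 5.44. Chaperone genes of the endoplasmic reticulum were among those that were higher, with *HSPA5* at 2.20 and 2.05 and *HSP90B1* at 2.11 and 1.75, and of 19 heat shock and unfolded protein response genes 12 were higher and 1 lower in the first pair and 9 higher and 1 lower in the second. The metallothionein genes *MT3* and *MT4* had ratios of 4.69 and 3.99 without clodronate and of 1.14 and 0.42 with it, and they were at 534 and 895 CPM in GLUL-high MG of clodronate+saline and at 55.9 and 40.1 CPM in those of saline.

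**Figure D3:**
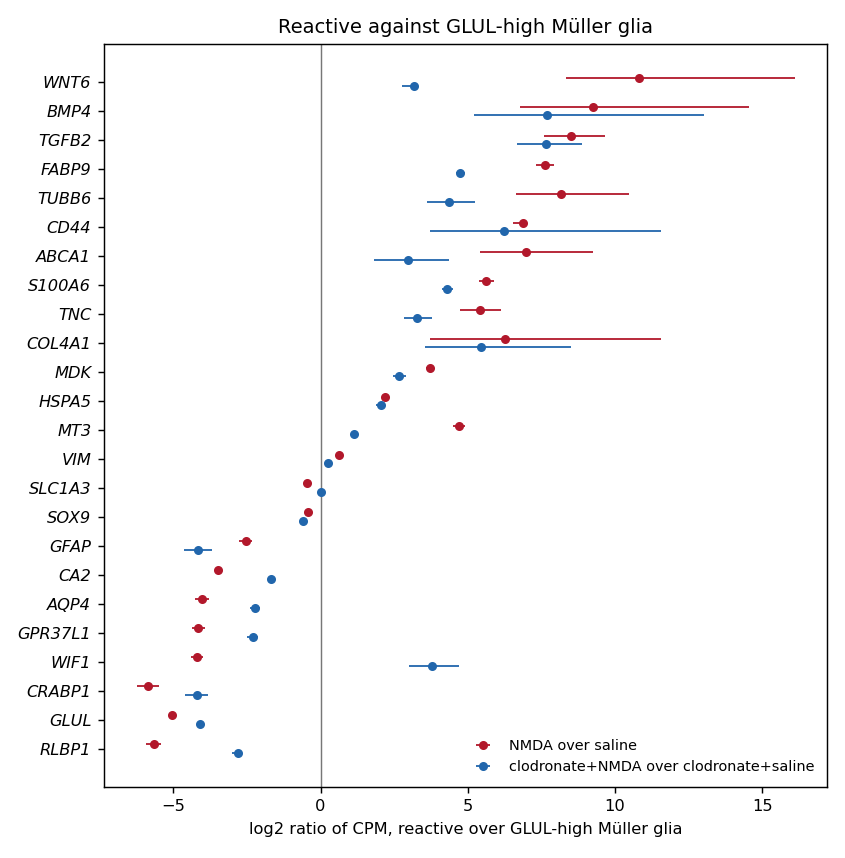
The x axis gives the log2 ratio of CPM, reactive MG after NMDA over GLUL-high MG of the library without NMDA, in red without clodronate and in blue with clodronate. Lines are exact 95% intervals of counting error, a side with 0 UMIs was set at 3 counts with the open end of its interval not drawn, and *CRABP1* (-5.86 and -4.21) and *GFAP* (-2.54 and -4.15) lie left of 0 in both pairs. *GLUL* and *RLBP1* chose the GLUL-high MG and *FABP9* and *TGFB2* the reactive MG.

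The next comparison was between the reactive MG of the 2 libraries, clodronate+NMDA over NMDA, which asks how the depletion of microglia before injury went with the state of MG. *FABP9* and *TGFB2* chose the members of both libraries, so that their log2 ratios of 0.18 and -0.28 were set in part by the rule. *VIM*, which was not used, was at 0.24. Several ligands and signal feedback genes were lower after clodronate, and homeostatic and S-phase genes were higher. Of 10965 genes with at least 20 UMIs, 8.54% were higher and 5.38% lower by 2-fold, and the median log2 ratio was 0.11. Under TMM scaling, which moved the median by -0.17, 5.72% were higher and 7.12% lower. With 1 library per group, a library effect and an effect of clodronate cannot be told apart.

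The Wnt ligand genes *WNT4* and *WNT6* were far lower in the members of clodronate+NMDA, whereas *WNT5A* was at -0.28. *WNT4* had 3249 UMIs in the members of NMDA, where 362 of 597 held at least 1, and 25 UMIs in 11 of 344 members of clodronate+NMDA. In CPM this was 726 against 11.2, a log2 ratio of -6.01 (-6.64 to -5.45). *WNT6* was at 476 and 12.1 CPM, with UMIs in 459 and 19 members, and had a ratio of -5.29 (-5.90 to -4.75). *RSPO3*, an enhancer of Wnt signals, was at 83.5 and 2.25 CPM (-5.22, -6.85 to -3.98). Outside the members *WNT6* was at -6.89 and *RSPO3* at -3.78. *WNT4* was lower there as well, at 90.9 CPM in NMDA and 0.68 CPM in clodronate+NMDA (-7.06), and in GLUL-high MG of both libraries without NMDA it had 2 and 1 UMIs.

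Both Wnt ligands were widely found in the NMDA library, often in the same cells. Whether they shared cells more often than their separate shares would give was not tested. In NMDA, 523 of 597 reactive MG held a UMI of *WNT4* or *WNT6* and 298 held both, whereas in clodronate+NMDA 30 of 344 held either and 0 both. That count allows a share of cells with UMIs of both of up to 0.872% by a floor of 3 cells and 1.07% by the exact interval, which does not limit the share of cells that express both. Thinned to 2000 UMIs per cell, either was found in 75% of 579 members of NMDA (71.2 to 78.4%) and in 3.02% of 331 members of clodronate+NMDA (1.46 to 5.49%). In bipolar-type barcodes of the same depth the shares were 5.25% and 0 of 920. Of 17 genes in the Wnt list, 4 were lower and 1 higher, and the higher one was the receptor *FZD5*, at 27.9 and 158 CPM (2.50, 2.20 to 2.81). *TCF7L2*, a nuclear effector, was the fourth lower gene, at -1.24, and the inhibitors *SFRP1* and *WIF1* were at 0.66 and 0.94.

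Single growth factor genes were lower in the members of clodronate+NMDA, while their lists went different ways. Of the TGFβ and BMP list 4 of 24 genes were lower and 5 higher, of the midkine and pleiotrophin list 3 of 11 were lower and 0 higher, and of the EGF family and its receptors 2 of 10 were lower and 0 higher. *INHBA* was at 520 CPM in NMDA and 69.6 CPM in clodronate+NMDA (-2.90, -3.15 to -2.67), and its binding partner *FST* at 133 and 45.8 CPM (-1.54, -1.86 to -1.24). *MDK* was at 1683 and 514 CPM (-1.71, -1.80 to -1.62), and *SDC4*, a heparan sulfate proteoglycan gene of the midkine list, at 395 and 72.3 CPM (-2.45, -2.69 to -2.22), while the related *SDC1* was at 277 and 292 CPM. *HBEGF* was at 296 and 129 CPM (-1.19, -1.38 to -1.01). *IGFBP4*, an IGF binding protein gene, was at 1075 and 112 CPM (-3.27, -3.45 to -3.08), with UMIs in 561 of 597 and 153 of 344 members. *BMP4* at -0.79 and *TGFB1* at 0.57 were within 2-fold. In the other barcodes the drop was also seen for *INHBA*, at -2.63, *MDK*, at -2.99, and *HBEGF*, at -2.33. There *BMP4* was at -2.17, *TGFB1* at -0.61 and *FST* at -0.21. The other barcodes also held glial UMIs, and *VIM* was at -1.38, *SLC1A3* at -1.27 and *SOX9* at -1.27 there. Of 21 homeostatic genes, 9 were lower and 2 higher in those barcodes. Values of the other barcodes, here and below, thus do not tell whether a drop was particular to the members.

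More cytokine and MAPK genes were lower than higher. Of 19 cytokine, NF-κB and JAK-STAT genes, 6 were lower and 1 higher. *SOCS3*, a feedback inhibitor of JAK-STAT signals, was at 193 and 79.5 CPM (-1.28, -1.52 to -1.05), the receptor gene *OSMR* at 80.6 and 32.3 CPM (-1.32, -1.70 to -0.95) and the ligand gene *LIF* at 25.5 and 5.39 CPM (-2.24, -3.23 to -1.38). In the FGF and MAPK list 5 of 21 genes were lower and 2 higher, with the phosphatase genes *DUSP1* at 385 and 111 CPM (-1.80, -1.99 to -1.60) and *DUSP5* at -1.69 and the receptor *FGFR1* at 208 and 86.2 CPM (-1.27, -1.50 to -1.05). In the other barcodes *FGFR1* was at -1.48, *DUSP1* at -0.69 and *DUSP5* at -0.86. *LIF* rested on 47 and 7 members. *HAS2* had a ratio of -5.26 (-6.39 to -4.33).

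Notch genes went in both directions. Of 11 Notch genes, 3 were lower and 1 higher, and the effector gene *HES5* was at 11.8 and 1.8 CPM (-2.72, -4.65 to -1.28), on 21 and 3 members. *HES6* had 48 and 0 UMIs, a ratio of -2.99 or lower by a floor of 3 counts, whereas *HEY1* was at 13.2 and 32.3 CPM (1.30, 0.78 to 1.82). *HES1*, the more abundant effector, was at 349 and 225 CPM (-0.63, -0.78 to -0.49). In the other barcodes *HES1* was at -1.35, *HES5* at -1.44 and *HES6* at -1.42, while *HEY1* was at -0.03. Of 21 glial and progenitor factors, 1 was higher, *TEAD1*, the DNA-binding partner of YAP, at 33.9 and 88 CPM (1.37, 1.06 to 1.69), and 2 were lower. *SOX2* at -0.31, *SOX9* at 0.32 and *PAX2* at 0.24 were within 2-fold. *MSX1*, outside the list, was at 147 and 26 CPM (-2.50, -2.91 to -2.11).

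Fatty acid binding protein genes split. *FABP4*, known from adipocytes and macrophages, was at 38.6 and 1.8 CPM (-4.43, -6.32 to -3.04), with UMIs in 49 and 2 members, 59% of those of NMDA in 5 members. *FABP7* was at 3383 and 2861 CPM (-0.24, -0.28 to -0.20). *FABP3* was at 7.82 and 36.4 CPM (2.22, 1.63 to 2.83), with 85.2% of its UMIs in clodronate+NMDA in 5 members, and was at -0.19 where *FABP9* had to be 0.1% of UMIs. The immediate early gene *FOSL2* was at 71 and 20.2 CPM (-1.81, -2.30 to -1.36), the 1 gene of 10 in its list that passed 2-fold.

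Of the leading lower genes outside the lists, *CYP24A1*, which encodes the enzyme that inactivates vitamin D, had 162 UMIs in 93 members of NMDA and 1 UMI in clodronate+NMDA (-6.33, -11.64 to -3.83). *HPGDS*, a prostaglandin D synthase gene, was at 131 and 2.69 CPM (-5.60, -7.06 to -4.47), with UMIs in 150 and 6 members. *TSPEAR* had 259 UMIs in 158 members and 4 UMIs in 4 (-5.01, -6.90 to -3.64). *GLDN* had 98 UMIs in NMDA, 84.7% of them in 5 members, and 0 in clodronate+NMDA. The first 3 were thus spread over many cells and the last was not.

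Of the leading higher genes, *PPP2R2C*, a phosphatase subunit gene, was at 18.3 and 148 CPM (3.01, 2.66 to 3.38), with UMIs in 75 of 597 and 165 of 344 members. *GAREM2* had 2 UMIs in 2 members and 47 in 39 (5.56, 3.63 to 8.65), and *SOSTDC1*, a secreted BMP and Wnt antagonist gene, 2 in 2 and 27 in 22 (4.76, 2.77 to 7.88). All 3 were found in GLUL-high MG of both libraries without NMDA, *PPP2R2C* at 135 and 76.7 CPM, *GAREM2* at 30.8 and 19.4 CPM and *SOSTDC1* at 16.6 and 14.9 CPM. *TFAP2D* and *ANKRD1* rested on 5 and 11 members of clodronate+NMDA, and *FBN2* on 21 UMIs in 16.

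Homeostatic genes were higher in the reactive MG of clodronate+NMDA, 8 of 20 by 2-fold and none lower, with a median log2 ratio of 0.77. *RLBP1*, a retinoid carrier gene of MG, was at 30.1 CPM in NMDA and 146 CPM in clodronate+NMDA (2.28, 1.99 to 2.58), and its UMIs were in 118 of 597 and 179 of 344 members. *AQP4* was at 40.4 and 155 CPM (1.94, 1.67 to 2.21), *GPR37L1* at 42.9 and 121 CPM (1.50, 1.23 to 1.77) and *CA2* at 1330 and 2686 CPM (1.01, 0.96 to 1.07). *GLUL*, glutamine synthetase, was at 478 and 722 CPM (0.59, 0.50 to 0.69). Of the 8, *CA2*, *CRABP1*, *CYP26A1* and *HEPACAM* were at the limit, with ratios of 1.01 to 1.02, and under TMM scaling 4 of 20 passed 2-fold and those 4 genes did not. *RLBP1*, *AQP4*, *GPR37L1*, *CA2* and *GLUL* lay under their levels in GLUL-high MG of the matching library without NMDA. There *RLBP1* was at 1533 and 1037 CPM, but *RLBP1* and *GLUL* chose those MG. *ALDH1A1*, also among the 8, was higher in reactive MG than in GLUL-high MG of the clodronate pair, at 2.06. In that pair 2 of 20 genes of the list were higher and 8 lower. In the other barcodes *RLBP1* and *GLUL* had lower levels in clodronate+NMDA, at -0.73 and -1.07, and *AQP4* a higher one, at 1.31.

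Inhibitors of differentiation, the targets of BMP signals, were higher as a family. *ID1* was at 22.8 and 96.6 CPM (2.08, 1.74 to 2.44), *ID2* at 18.3 and 68.7 CPM (1.91, 1.51 to 2.31), *ID3* at 70.1 and 156 CPM (1.16, 0.93 to 1.38) and *ID4* at 183 and 445 CPM (1.28, 1.14 to 1.42). Under TMM scaling *ID3* was at 0.99. Outside the members *ID4* was also higher, at 0.93, while *ID1* was at -0.56, *ID2* at 0.07 and *ID3* at -0.78. Between the GLUL-high MG, clodronate+saline over saline, *ID1* was at 3.36 and *ID3* at 1.79, while *ID2* was at 0.22 and *ID4* at -0.33. These 4 genes and *INHBB* were the 5 of 24 TGFβ and BMP genes that were higher, and 4 were lower. *INHBB* had 20 UMIs in 3 members of clodronate+NMDA, and at a limit of 2 *FABP9* UMIs its ratio was -0.61. Retinoic acid genes went in both directions, 4 of 10 higher, or 2 of 10 under TMM scaling, and 3 lower, with the retinol dehydrogenase gene *RDH10* at 68.6 and 12.1 CPM (-2.50, -3.12 to -1.93) and the carrier gene *CRABP2* at 5 UMIs in NMDA and 22 in clodronate+NMDA (3.15, 1.71 to 4.90).

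Among cytoskeletal and surface genes, 3 of 21 were higher and 3 lower. *ANXA1*, a phospholipid-binding annexin gene, was at 25 and 310 CPM (3.63, 3.34 to 3.93), and its UMIs were in 58 of 597 members of NMDA and 223 of 344 members of clodronate+NMDA. *S100A11*, whose product binds annexins, was at 79.5 and 491 CPM (2.63, 2.45 to 2.80), and *ANXA2* at 217 and 477 CPM (1.13, 1.01 to 1.26). *CD44* at -1.45 and *GFAP* at -1.22 were lower, the former by -0.91 among members with at most 2500 genes. *ANXA1* was also higher in the other barcodes of clodronate+NMDA, at 1.95. Its level in GLUL-high MG was 0.268 CPM in saline, and it had 0 UMIs in clodronate+saline, so that against the latter a floor of 3 counts gave a log2 ratio of at least 7.84.

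Of 17 cell cycle genes, 10 were higher in clodronate+NMDA and 0 lower, with a median log2 ratio of 1.47. *PCNA*, the clamp of the replication fork, was at 55.4 and 143 CPM (1.37, 1.13 to 1.62, and 0.78 among members with at most 2500 genes), the helicase subunit gene *MCM4* at 12.1 and 55.2 CPM (2.20, 1.72 to 2.69) and the ribonucleotide reductase gene *RRM2* at 4.69 and 31.4 CPM (2.74, 2.02 to 3.52). At least 3 of 9 S-phase genes were found in 43 of 597 members of NMDA and in 108 of 344 of clodronate+NMDA, although the former were deeper. Thinned to 2000 UMIs the shares were 1.55% (0.713 to 2.93%) and 10.6% (7.48 to 14.4%), against 0.309% and 0.109% of bipolar-type barcodes. At least 3 of 9 G2M genes were in 5 and 8 members. Detection of S-phase genes does not show that cells divided, and the limit of 3 genes was set after the values were seen. The members with 3 S-phase genes in clodronate+NMDA had a median of 7038 UMIs against 5311 in the rest.

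**Figure D4:**
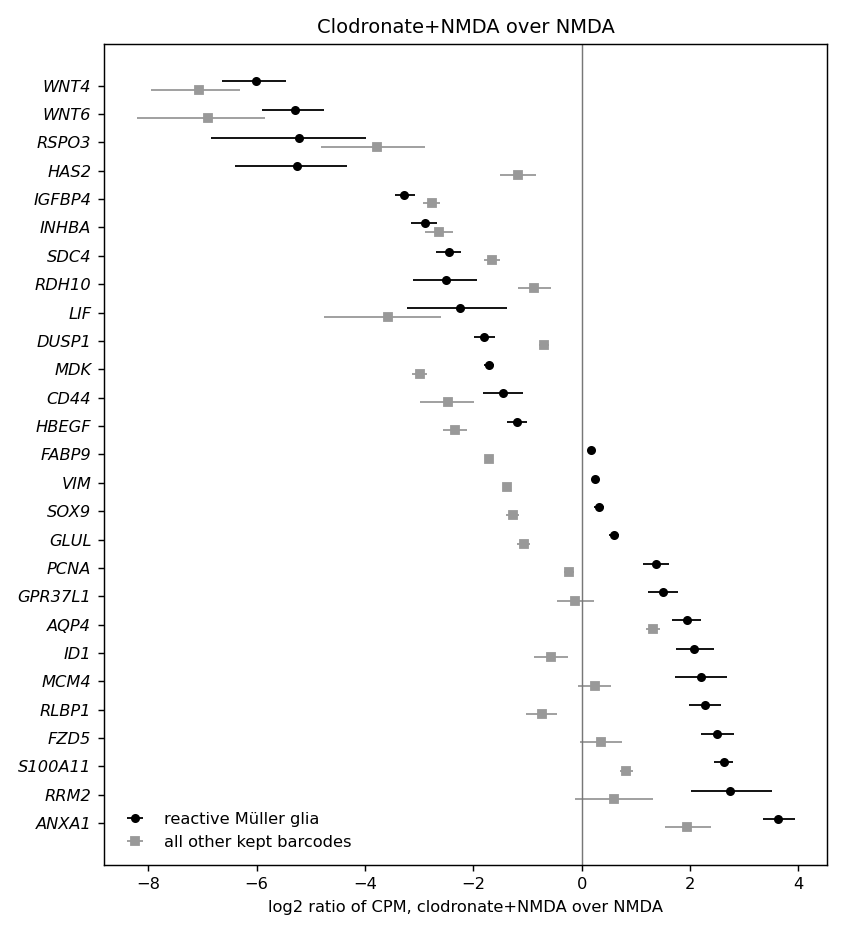
The x axis gives the log2 ratio of CPM, clodronate+NMDA over NMDA, in black for the reactive MG and in grey for all other kept barcodes, with exact 95% intervals of counting error. *WNT4* and *WNT6* lie far left in both, at -6.01 and -5.29 in reactive MG, and *RLBP1* and *ID1* lie right of 0 in the reactive MG, at 2.28 and 2.08, and left of it in the other barcodes, at -0.73 and -0.56.

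Interferon-stimulated genes headed the higher ratios, and these rested on few cells. *IFIT5* was at 2.01 and 170 CPM (6.40, 5.46 to 7.54), *RSAD2* at 0.447 and 34.6 CPM (6.27, 4.37 to 9.35), *IFI6* at 5.14 and 78.1 CPM (3.93, 3.30 to 4.62) and *OASL* at 14.3 and 87.1 CPM (2.61, 2.19 to 3.04). In clodronate+NMDA, 9 members with UMIs of at least 3 of these 4 genes held 368 of 379, 75 of 77, 173 of 174 and 178 of 194 UMIs, and 28 members held a UMI of any of the 4. In NMDA 1 member held 3 of the 4. Without those members *OASL* was at -0.35, and without the 5 members with most of its UMIs *IFI6* was at -0.58. These 2 alternatives were added after the data were seen. Bipolar-type barcodes with 3 of the 4 genes numbered 1 of 4580 and 9 of 2884. Of the 14 interferon and MHC genes, 9 were higher, and without the members with 3 of the 4 genes 1 of the 10 that then reached 20 UMIs. The class I genes *B2M* and *BF2* were at -0.15 and 0.07. In GLUL-high MG, 12 of 13 genes of this list were higher in clodronate+saline than in saline, *IFI6* at 265 against 0.535 CPM, *OASL* at 330 against 2.41 CPM and *IFIT5* at 108 against 4.82 CPM.

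**Figure D5:**
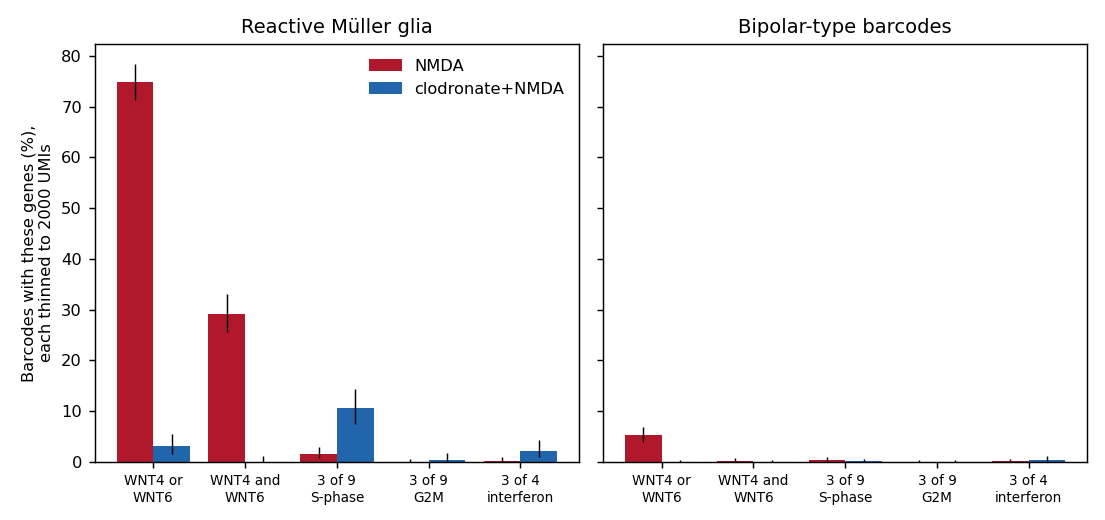
The y axis gives the percentage of barcodes, each thinned to 2000 UMIs, with UMIs of *WNT4* or *WNT6*, of both, or of at least 3 genes of a set, in red for NMDA and in blue for clodronate+NMDA, with reactive MG on the left and bipolar-type barcodes of the same library on the right. Thin lines are exact 95% intervals, and the reactive MG differ from each other most in Wnt ligands (75% and 3.02%) and S-phase genes (1.55% and 10.6%).

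Markers of other cell types moved between the members of the 2 libraries as well, and their part in these differences was not tested. The summed level of rod markers was 528 CPM in NMDA and 295 CPM in clodronate+NMDA, with 3 of 8 genes lower by 2-fold, and that of bipolar markers 317 and 454 CPM, with 2 of 9 higher. Ganglion cell markers summed to 161 and 435 CPM, with *THY1* and *SNCG* at 1.93 and 1.65. Of the *THY1* UMIs of clodronate+NMDA, 85.2% came from 5 members, and without the 5 highest members the ratio was -0.10. Hemoglobin genes summed to 75.7 and 0.449 CPM, and *HBA1* had 220 and 0 UMIs, a log2 ratio of -5.19 or lower by a floor of 3 counts. Microglial markers summed to 6.25 and 14.8 CPM, of which *CCL4* made 27 UMIs in 4 members of clodronate+NMDA. The mitochondrial share had medians of 1.73% and 2.24%.

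Genes of energy metabolism and protein turnover stayed within 2-fold. Of 17 glycolysis and hypoxia genes 0 passed 2-fold in either direction, with a median log2 ratio of 0.00 and *LDHA* furthest off at 0.95. The same held for 24 proteasome genes (median 0.31) and for 19 heat shock and unfolded protein response genes (median -0.32), of which 1 was lower by 2-fold under TMM scaling. Of 15 matrix and integrin genes 1 passed, *FN1* at -1.25. No test of likeness was made.

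Cells also differed among themselves within a library. After thinning to 2000 UMIs, 10 genes of each library were ranked by the Fano factor, the variance of UMIs over their mean, which is near 1 for counting error alone. In NMDA the order was led by *HBA1* at 28.4, the small heat shock protein gene *CRYAB* at 15.7 and *TIMP3*, an inhibitor of metalloproteinases, at 13.4. In clodronate+NMDA it was led by *IFI6* at 31.3, *IFIT5* at 26 and the myelin gene *MBP* at 17. *MBP* and *PLLP*, which belong to myelinating glia, were in the 10 of both libraries. At least 3 markers of oligodendrocytes and NIRG cells, a glial cell type of the bird retina, were found in 16 and 3 members.

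*CRYAB*, *TIMP3*, *SST1* and *OASL* were also shared by both rankings. *SST1*, a somatostatin gene, was at 159 CPM in the members of NMDA and 115 CPM in those of clodronate+NMDA, held by 58 and 27 members, against 22.8 and 7.29 CPM in the other barcodes. The prolactin-like gene *PRLL* was among the 10 in clodronate+NMDA, where 5 members held 72.1% of its 315 UMIs. *TIMP3* was broader, with UMIs in 221 of 597 and 94 of 344 members. *SLC1A3*, found in nearly all members, had 2.15% and 4.43% of its UMIs in the 5 highest members.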

How the data were processed

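Single cells of papain-dissociated retinas were captured on a 10x platform, 1 library per group. The authors deposited raw UMI counts per gene and barcode as filtered matrices, per the labels made with Cell Ranger 7.0.1 on GRCg7b, whereas the study's methods name an earlier assembly. Gene symbols were used as deposited. The depths were 20614413 to 27033560 UMIs per library.

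Barcodes were kept at 200 or more genes and 5% or fewer mitochondrial UMIs, and doublets were not removed. UMIs were summed over barcodes and divided by the summed total (CPM). Log2 ratios have exact conditional binomial intervals at the 95% level, which cover counting error only, and a sum of 0 was set at 3 counts. Genes with at least 20 UMIs in both sums together were compared, and higher or lower means at least 2-fold. No p-value was computed, since each group had 1 library. Bipolar-type barcodes had at least 3 bipolar cell markers and under 4 UMIs of *FABP9*. Where depths differed, each barcode with at least 2000 UMIs was thinned to that depth. Shallower barcodes were left out, among them 18 and 13 members and most of the other barcodes. Genes named were the rule genes, the listed genes whose interval lay furthest from 0 and the 10 leading genes of a comparison, and others were chosen after their values were seen. Some genes that this rule takes in are not reported here. The members and all lists were chosen with earlier results of these data known. Alternatives were other *FABP9* limits, gene, mitochondrial and UMI limits, removal of members with other markers, and TMM or median of ratios scaling. TMM factors came from edgeR 4.0.16, intervals from scipy 1.17.1, tables from pandas 2.3.3 with numpy 2.4.6 and plots from matplotlib 3.10.9, under Python 3.11.15. The intervals were tested on simulated counts that held counting error only, so that the test did not cover variation between cells or libraries.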

Additional observations from a re-analysis of the deposited data

Results flagged for a closer look

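Only genes chosen for naming in this report were searched for opposite directions in the NMDA and clodronate+NMDA libraries. In 4 of them the reactive MG lay below the other barcodes of the NMDA library and above those of clodronate+NMDA. Each differed by at least 2-fold, with intervals clear of 0. *CCL4*, a chemokine gene, had log2 ratios of -1.72 and 2.88, the interferon-stimulated gene *IFIT5* of -2.85 and 2.51 and *RSAD2* of -2.51 and 2.79. *FBN2*, a fibrillin gene, had ratios of -3.51 and 1.62, on 1 and 21 UMIs in the members. The difference between the libraries was not tested, and levels in other barcodes enter these ratios. In clodronate+NMDA *CCL4* had 27 UMIs in 4 members, and *IFIT5* and *RSAD2* had 379 and 77 UMIs in 17 and 10 members.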

How the results depend on the processing

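No paired analysis was possible because each group had 1 library. The number of reactive MG was 244 and 211 with at most 2500 genes per barcode, and 309 and 179 without members holding markers of other cell types. Against other barcodes of NMDA, median of ratios scaling gave 2998 higher and 3628 lower genes. With a floor of 1 UMI the higher genes numbered 6588 in NMDA and 8473 in clodronate+NMDA. Between the members of both libraries that floor gave 4539 higher and 932 lower genes, and a floor of 100 UMIs 351 and 295. At most 2500 genes per barcode gave 590 higher genes, and leaving out the 5 members with the most UMIs of each gene, an alternative added after seeing the data, 1151 lower ones. The higher share of called genes moved from 23.7% to 45.2% in NMDA and from 29.2% to 47.4% in clodronate+NMDA under median of ratios, and between the members from 61.3% to 44.5% under TMM. The homeostatic genes higher between the members numbered 4 of 20 in place of 8 under TMM, median of ratios and CPM without hemoglobin, mitochondrial and ribosomal protein genes, the higher retinoic acid genes 2 of 10 in place of 4 under TMM, and the higher interferon and MHC genes 1 of 10 in place of 9 of 14 without the interferon-rich members.

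Some single genes changed sign. Against other barcodes of clodronate+NMDA, *HBBA* was at 1.46 without members holding other markers and *FST* at -0.31 as a mean over cells. Between the members, *INHBB* was at -0.61 with 2 or more *FABP9* UMIs. *THY1* was at -0.28 with that limit, -0.49 with *FABP9* at 0.1% of UMIs or more, -0.17 without members holding other markers and -0.10 without its 5 highest members. *FABP3* was at -0.19 with *FABP9* at 0.1% of UMIs or more. *OASL* was at -0.35 without the interferon-rich members and *IFI6* at -0.58 without its 5 highest members. The cause was not tested. No alternative stands in for a second library per group.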
